A study of Oryza sativa with 12 samples.

Results

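The genes described here had more reads in every leaf library of the rice osbzip62 mutant than in every library of its Nipponbare wild type. They were chosen by these measured values. The level of a gene in a library was its CPM, the read count divided by the sum of counts of that library and multiplied by 1000000. A gene was taken when it reached at least 5 CPM in each of the 3 mutant libraries and when the lowest of these values was at least 2 times the highest Nipponbare value. These conditions were met by 175 genes, called mutant-raised genes here. Of these, 16 were then removed because they had at least 5 CPM in every OsbZIP62V library and their lowest OsbZIP62V value was at least 4 times their highest Kitaake value. The 159 genes that remained are the members. They were 0.446% of the 35679 genes listed, and 1.34% of the 11838 genes with at least 5 CPM in each mutant library.

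RNA came from leaves of unstressed seedlings at the four-leaf stage, grown in culture solution, with 30 plants in each library and 3 libraries in each of 4 groups. WT was the cultivar Kitaake, and OE1 was an OsbZIP62V line, Kitaake that overexpresses OsbZIP62 fused to the activation module VP64. NIP was the cultivar Nipponbare, and C54 was a homozygous osbzip62 mutant made in Nipponbare with CRISPR/Cas9. Each transgenic group was 1 line, and the sources used here do not give the promoter of the OsbZIP62V construct, so the effect of the construct and that of the line cannot be told apart. The mutant was made with a guide of 19 bases, read as the stretch that the primers of the mutant construct share. It targets OsbZIP62 (OS07G0686100, LOC_Os07g48660) on chromosome 7, and is shown because it gives the target site of the mutant, not its altered sequence.

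osbzip62 guide: gcgtgtataaccgcgtgga

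OsbZIP62 belongs to the bZIP family of transcription factors, many of which bind ACGT-containing elements in promoters and act in the response to abscisic acid (ABA), the hormone of drought and seed dormancy. Leaves that meet stress or grow old switch on several programmes that recur below. Ethylene is made from methionine by way of S-adenosylmethionine and ACC, and ethylene-response factors of the AP2 family act downstream of it. Chaperones of the Hsp90, Hsp70 and Hsp40 classes fold proteins in the cytosol, the chloroplast and the endoplasmic reticulum (ER). Senescing leaves dismantle chlorophyll and move nitrogen to younger tissue, and attacked leaves secrete chitinases, protease inhibitors and peroxidases.

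OsbZIP62 itself had 1152, 1071 and 992 CPM in OE1-1, OE1-2 and OE1-3, and no more than 0.434 CPM in any WT library. It had 0.177, 0.782 and 0.0549 CPM in NIP-1, NIP-2 and NIP-3, and 1.03, 0.641 and 0.338 CPM in C54-1, C54-2 and C54-3. The NIP and C54 values overlapped and were all near the detection limit, so the count of reads does not check the mutation. Total counts ranged from 9224755 in WT-1 to 19759728 in WT-3. TMM factors, which correct the library totals for a few dominant genes, ranged from 0.812 in NIP-3 to 1.19 in OE1-3. With TMM-scaled library sizes the rule gave 110 genes, 103 of them members.

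Markers of leaf cells were unequal between libraries of the same group. The 8 antenna genes on a list of photosynthetic antenna proteins summed to between 9229 and 30271 CPM in NIP, 5854 and 13708 in C54, 3759 and 10758 in OE1, and 2738 and 2932 in WT. A list of 22 tubulin, kinesin and histone genes, taken as a marker of dividing cells, summed to 1100, 486 and 309 CPM in NIP-1, NIP-2 and NIP-3, and to between 805 and 1099 CPM in C54. No antenna gene was a member, and 2 genes of the dividing-cell list were. The part of these differences in the levels of the members was not tested. In bulk leaf RNA, fewer cells of a type and less RNA per cell cannot be told apart.

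The median of the 159 members was 26.9, 25.9 and 34.4 CPM in C54-1, C54-2 and C54-3. It was 5.73, 6.43 and 5.10 CPM in NIP-1, NIP-2 and NIP-3, 8.998, 12.2 and 11.5 CPM in the WT libraries, and 10.03, 15.0 and 12.9 CPM in the OE1 libraries. The median over the members was thus lowest in NIP, intermediate in both Kitaake groups and highest in C54. The first and the last of these follow from the choice. Single members often differed from this order, and all 3 WT values lay strictly between NIP and C54 in 30 of the 159. The lowest C54 value exceeded the highest NIP value by a median of 2.48 times. It was at least 3 times the highest NIP value in 44 members, and at least 10 times in 14.

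**Figure D1:**
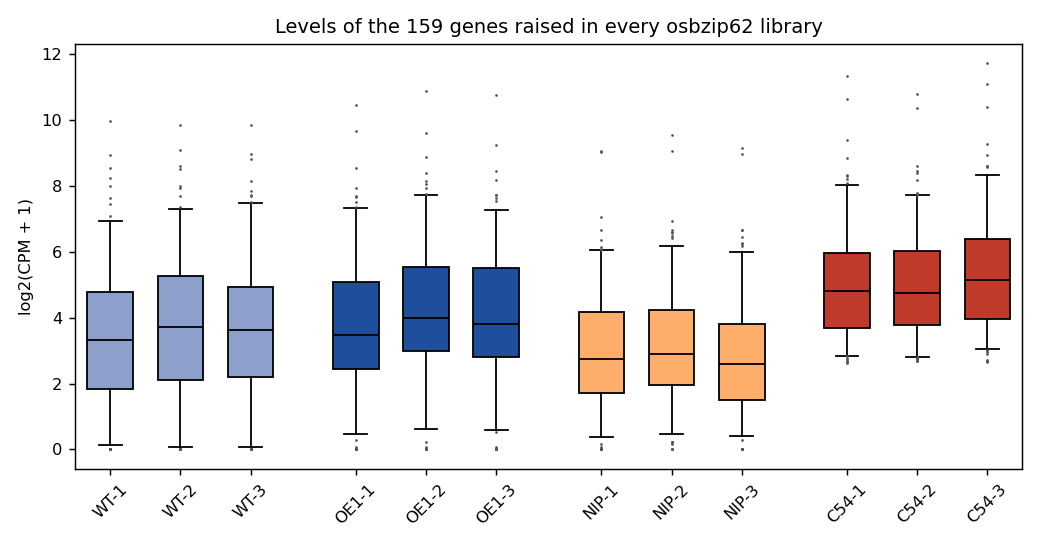
Box plots of log2(CPM + 1) over the 159 members in each of the 12 libraries, with the box at the quartiles, the line at the median whiskers from the 5th to the 95th percentile and small points for members beyond them. C54-3 has the highest median (34.4 CPM) and NIP-3 the lowest (5.10 CPM).

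The 3 mutant libraries were not alike. C54-3 was the highest of them for 99 members (62.3%), against 27.9% of all genes with at least 5 CPM in each C54 library. C54-2 was the lowest for 80 members (50.3%), against 27.1%. NIP-3 was the lowest of its group for 82 members (51.6%), against 55.8% of those genes. Among the OE1 libraries, OE1-2 was the highest for 87 members (54.7%), against 30.05%.

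Many members lay close to the threshold. The aminotransferase-domain gene OS05G0244700, with a lowest C54 value of 18.1 CPM against a highest NIP value of 8.998 CPM, was 2.01 times higher and just inside. A leucine-rich-repeat gene, OS10G0469600 (2.02 times), and the kinase-related gene OS05G0318100 (2.02 times) followed it. Just outside lay OsGL1-4 (OS02G0621300, 11.6 against 5.82 CPM), a protein kinase gene (OS09G0353200, 5.89 against 2.96 CPM) and a cytochrome P450 gene (OS07G0635300, 32.0 against 16.1 CPM). At the minimum level, the members OS02G0227700 (a serine/threonine kinase), OS04G0420900 and OS03G0629800 had lowest C54 values of 5.13, 5.24 and 5.34 CPM. A kinase gene (OS02G0615500), an RNA-recognition-motif gene (OS03G0374575) and germin-like protein 8-10 (OS08G0189900) stayed outside with 4.85, 4.84 and 4.80 CPM.

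The edgeR test of C54 against NIP, given as a description since the rule used this contrast, called 46 of the 159 members higher at an adjusted p under 0.05. Over all genes it called 77 of 20398, or 0.377%, and nothing is read from the difference. Without C54-1 or without C54-3 edgeR called 0 members, although 159 and 158 had an unadjusted p under 0.05, and DESeq2 on all 6 libraries called 158. The count was 5 without C54-2, 11 without NIP-2 and 118 without NIP-3.

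A few members had almost no reads in any other group. There were 6 that stayed under 1 CPM in all 9 WT, OE1 and NIP libraries. The cytochrome P450 gene OS06G0204100 had 17.5, 22.9 and 21.9 CPM in the C54 libraries and no read in the other 9. Allowing 3 counts in a NIP library, its lowest C54 value was at least 98.6-fold higher. OS03G0429900, annotated as a retrotransposon protein, had 13.5, 19.2 and 17.6 CPM in C54 and likewise no read elsewhere, at least 76.4-fold higher. Cytochromes P450 oxidise many small molecules, and retrotransposons are mobile elements that copy themselves through RNA.

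The highest of this set was OS07G0115200, a conserved hypothetical protein, with 128, 150 and 104 CPM in C54, no read in NIP or OE1 and at most 0.0589 CPM in WT. A CACTA-class DNA transposon, OS10G0485400, had 26.8, 30.3 and 22.9 CPM in C54 and no more than 0.168 CPM elsewhere. OS08G0410900, which has no paired annotation, had 31.7, 31.0 and 29.6 CPM in C54 and at most 0.391 CPM elsewhere. The B3-domain gene OS10G0537100, of a plant class of DNA-binding factors, had 5.45, 6.41 and 8.29 CPM in C54 and up to 0.867 CPM elsewhere. In each of these genes every C54 library lay far above all 9 others. OS07G0162450, which codes for a DUF3778 protein, was close to this pattern, with 62.9, 106 and 74.8 CPM in C54 and a highest value of 1.13 CPM elsewhere, in OE1-3.

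Other members with the largest contrast had reads in the Kitaake groups. OS03G0629800, an expressed protein, had no read in WT or NIP, 3.83, 2.97 and 4.14 CPM in OE1, and 5.34, 7.17 and 6.76 CPM in C54. It was present in both transgenic groups and in neither wild type. Its OE1 level was higher than WT in edgeR (adjusted p = 0.00341), and against a floor of 3 counts per WT library its lowest OE1 value was at least 9.12-fold higher. OS03G0629800 passed the filter on low counts only through OE1, so the call is a description. OS02G0772100, without annotation, had at most 0.471 CPM in WT and 0.384 CPM in NIP, but 3.50, 6.65 and 10.3 CPM in OE1 and 71.9, 55.4 and 71.0 CPM in C54. It was called higher in OE1 (log2 fold change 4.45, SE 0.55, adjusted p = 0.00452), and no OE1 library overlapped with a WT or C54 library. This gene too passed the filter only through OE1. OS03G0826900, a conserved hypothetical protein, had the largest ratio of highest to lowest C54 value among the members, with 13.4, 25.0 and 126 CPM in C54 and 1.83, 3.90 and 3.64 CPM in OE1, against at most 0.235 CPM in WT.

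OS12G0117700 had 61.3, 61.4 and 64.1 CPM in C54 and a highest NIP value of 3.58 CPM, and its OE1 values of 2.53, 8.52 and 9.42 CPM overlapped with those of WT. OS12G0528801 had 15.1, 13.3 and 16.5 CPM in C54, at most 1.12 CPM in NIP, and 5.88, 11.0 and 9.48 CPM in OE1 against at most 1.94 CPM in WT. It was called higher in OE1 (log2 fold change 2.49, SE 0.37, adjusted p = 0.00980). Neither of these genes has a paired annotation. The opposite pattern was seen for OS06G0559600, a hypothetical gene, which had 15.6, 16.4 and 16.7 CPM in C54 and 0.473, 1.06 and 0.219 CPM in NIP. Its levels of 22.4, 25.5 and 25.9 CPM in WT and 24.3, 21.0 and 25.7 CPM in OE1 were all above C54, so here NIP was the group that stood apart.

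**Figure D2:**
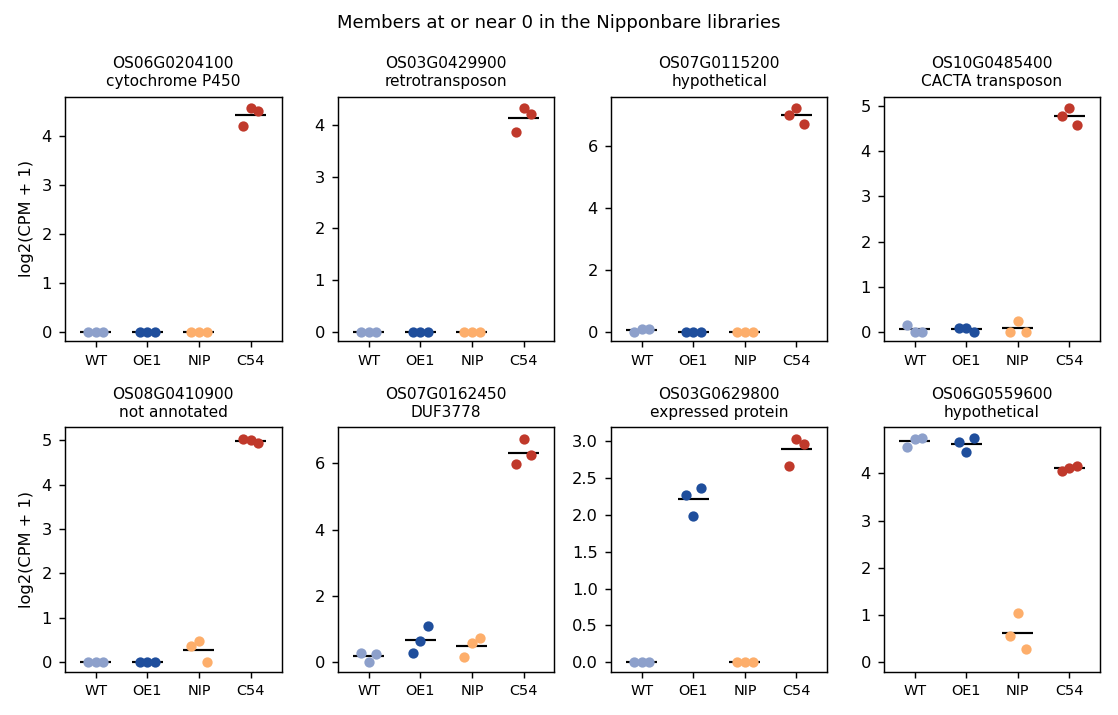
Levels of 8 members on a log2(CPM + 1) scale, 1 point per library and a line at the mean of each group of 3, each panel with its own axis. The first 6 panels show reads in the C54 libraries and almost none elsewhere, OS03G0629800 shows reads in both transgenic groups, and OS06G0559600 is low in NIP alone.

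Functions were read from the annotation columns of the study's tables of changed genes, through which 148 of the 159 members could be paired with a locus. The 17 lists used below hold genes of those tables only, so a list holds no gene that never passed there and its counts are not independent evidence. As a base for the counts below, 148 of the 2895 paired loci and 45 of the 328 list loci were members. No list was tested against this base, so each count is a description. For calls in OE1 against WT the base was 4.54% higher and 2.89% lower of the 19864 genes tested. The study's tables of changed genes include OE1 against WT, so a high share of calls on a list follows in part from the choice.

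Ethylene synthesis and response held 7 members among 13 genes. ACC oxidase OsACO2 (OS09G0451000), which makes ethylene from ACC, had 675, 389 and 1368 CPM in C54, 65.6, 102 and 102 CPM in NIP, 45.2, 60.4 and 63.8 CPM in OE1, and 41.1, 25.0 and 18.4 CPM in WT. Every C54 library was well above the rest, and every WT library was below every NIP library. The mean C54 level was 9.05 times that of NIP. Its OE1 values did not overlap with WT but did not pass the test (log2 fold change 0.90, SE 0.29, adjusted p = 0.0986). S-adenosylmethionine synthase 3 (OS01G0293000), which makes the methyl donor from which ACC derives, had 6.74, 5.83 and 7.22 CPM in C54 and at most 2.13 CPM in any other library.

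The other 5 were AP2-family factors. A TINY-like gene (OS06G0166400) had 22.6, 21.0 and 43.0 CPM in C54 and 5.73, 9.05 and 6.42 CPM in NIP. It was highest in OE1, with 60.5, 64.8 and 45.1 CPM against 23.1, 24.3 and 19.0 CPM in WT (log2 fold change 1.28, SE 0.23, adjusted p = 0.0171). ERF061 (OS05G0572000) also rose in OE1, from 19.6 ± 2.89 to 41.8 ± 8.33 CPM (SD, n = 3; log2 fold change 1.00, SE 0.20, adjusted p = 0.0281 in edgeR). OsRap2.6 (OS04G0398000), a RAP2.6-like gene (OS12G0168100) and an ERF annotated as pathogenesis-related (OS03G0191900) did not pass in OE1 against WT. The last of these had 19.3, 42.6 and 31.8 CPM in WT, 35.9, 27.0 and 21.98 CPM in OE1 and 16.0, 13.6 and 27.6 CPM in C54, against 3.66, 5.48 and 1.92 CPM in NIP. Of the 12 genes of this list tested in OE1 against WT, 5 rose, against 4.54% of all genes tested. The list was drawn from changed genes, so nothing is read from this.

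Members that act in the ER were 4 of a list of 13. OSGrp94 (OS06G0716700), the Hsp90 of the ER, had 109, 103 and 136 CPM in C54 and 35.6, 30.8 and 20.8 CPM in NIP. WT (35.1, 35.1 and 39.9 CPM) and OE1 (34.5, 45.3 and 49.6 CPM) overlapped with each other and lay below C54 throughout. The protein disulfide isomerase PDIL2-3 (OS09G0451500), which forms disulfide bonds in new proteins, had 8.42, 8.80 and 8.17 CPM in C54 and at most 4.52 CPM elsewhere. A 22 kDa subunit of signal peptidase (OS09G0556000), which cuts signal peptides, had 13.8, 13.3 and 14.04 CPM in C54 and at most 8.78 CPM elsewhere. These 3 genes shared the pattern of a mutant group above all 3 other groups.

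Derlin-1 (OS05G0187800), which helps to export misfolded proteins from the ER, differed from them. It had 8.63, 6.005 and 9.02 CPM in C54 and 2.19, 1.90 and 0.988 CPM in NIP, but 10.8, 11.3 and 8.60 CPM in WT. It fell in OE1 to 4.53, 5.33 and 5.65 CPM (log2 fold change -1.09, SE 0.21, adjusted p = 0.0243). Of the 12 genes of the ER list tested in OE1 against WT, it was the one that edgeR called.

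Cytosolic and chloroplast chaperones were 6 of 41 genes on the heat shock list. The Hsp82-like gene OS08G0500700, a cytosolic Hsp90, had 71.1, 37.7 and 68.2 CPM in C54 and 14.9, 15.5 and 10.6 CPM in NIP. In WT it had 61.2, 41.7 and 39.5 CPM, and in OE1 9.65, 16.3 and 13.6 CPM. WT overlapped with C54, and OE1 overlapped with NIP. OE1 against WT passed the test (-1.95 on the log2 scale, SE 0.25, adjusted p = 0.00520).

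OS03G0276500, annotated as a Mediator subunit 37c and belonging to the Hsp70 family, was likewise low in NIP and OE1. It had 318, 147 and 321 CPM in C54, 47.2, 56.6 and 71.4 CPM in NIP, 301, 246 and 206 CPM in WT, and 77.1, 77.4 and 42.7 CPM in OE1 (OE1 against WT -2.0, SE 0.31, adjusted p = 0.0114). A DnaJ-type Hsp40 (OS04G0675400) had 13.9, 16.6 and 16.2 CPM in WT, above its 9.23, 8.51 and 11.2 CPM in C54, and fell to 1.46, 5.82 and 2.83 CPM in OE1 (-2.31, SE 0.43, adjusted p = 0.0211). The co-chaperone STI (OS02G0644100), which joins Hsp70 to Hsp90, had 15.7, 11.1 and 14.2 CPM in C54 and 3.01, 2.85 and 4.17 CPM in NIP, and fell from 18.4, 14.8 and 18.5 CPM in WT to 7.23, 9.01 and 6.15 CPM in OE1 (-1.28, SE 0.22, adjusted p = 0.0167). In all 4 of these genes every WT and C54 library was above every NIP and OE1 library. Hsp90 and Hsp70 genes have close paralogs, so reads that match several copies make these values uncertain.

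The remaining 2 chaperones went another way. ClpD (OS02G0526400), a chloroplast chaperone of the Clp system that is known as a drought-induced gene in plants, had 299.6, 287 and 379 CPM in C54 and 69.6, 94.0 and 57.4 CPM in NIP. It rose in OE1, from 109, 164 and 181 CPM to 372, 472 and 289 CPM (log2 fold change 1.25, SE 0.27, adjusted p = 0.0331). The DnaJ gene OS06G0716100 had 177, 148 and 207 CPM in C54 and at most 60.2 CPM in NIP, and its WT (131 ± 19.8 CPM) and OE1 (133 ± 15.0 CPM) levels overlapped. Over the 37 tested genes of the list, 8 rose and 14 fell in OE1, against 4.54% and 2.89% of all genes tested. This list too was drawn from changed genes.

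Senescence was represented by 2 members of 14 list genes. OsNAP (OS03G0327800), a NAC factor that promotes leaf senescence in rice, had 60.8, 65.2 and 71.9 CPM in C54 and 17.9, 24.5 and 16.0 CPM in NIP. Its OE1 values of 43.6, 117 and 67.0 CPM overlapped with 38.8, 47.0 and 39.2 CPM in WT. The gene of red chlorophyll catabolite reductase (OS10G0389200), an enzyme of chlorophyll breakdown, had 26.8, 42.2 and 36.4 CPM in C54 and 6.32, 6.82 and 3.79 CPM in NIP. Its WT values (17.2, 21.5 and 17.2 CPM) lay between those of NIP and C54. OE1-2 was the highest OE1 library for both genes, and neither passed in OE1 against WT. A second NAC member, OS07G0683200, had 14.4, 41.7 and 18.8 CPM in WT, 76.0, 144 and 113 CPM in C54, 21.9, 35.0 and 2.03 CPM in NIP and 40.2, 268 and 151 CPM in OE1.

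ABA-related members were 2 of 35 list genes. OsABF1 (OS01G0867300), a bZIP factor that acts in ABA signalling in rice, had 32.0, 36.1 and 66.9 CPM in C54 and 13.95, 14.7 and 7.96 CPM in NIP. It rose in OE1, from 15.6, 14.1 and 14.02 CPM to 27.8, 35.7 and 27.3 CPM (log2 fold change 0.97, SE 0.18, adjusted p = 0.0223). The protein phosphatase PP2C61 (OS07G0114000) had 8.47, 8.92 and 12.5 CPM in C54 and at most 3.31 CPM in NIP. Its WT level was higher than that of C54 in every library (19.8, 28.8 and 25.9 CPM), and its OE1 values of 9.38, 15.8 and 19.4 CPM did not pass the test (adjusted p = 0.0663). On the whole ABA list 33 genes were tested in OE1 against WT, of which 19 rose and 6 fell. Over all genes tested the shares were 4.54% and 2.89%, but the list was drawn from changed genes, so nothing is read from the difference. From the ABA list HOX24 (OS02G0649300) and a low-temperature-induced gene (OS03G0286900) were also mutant-raised, and the exclusion removed them from the set.

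**Figure D3:**
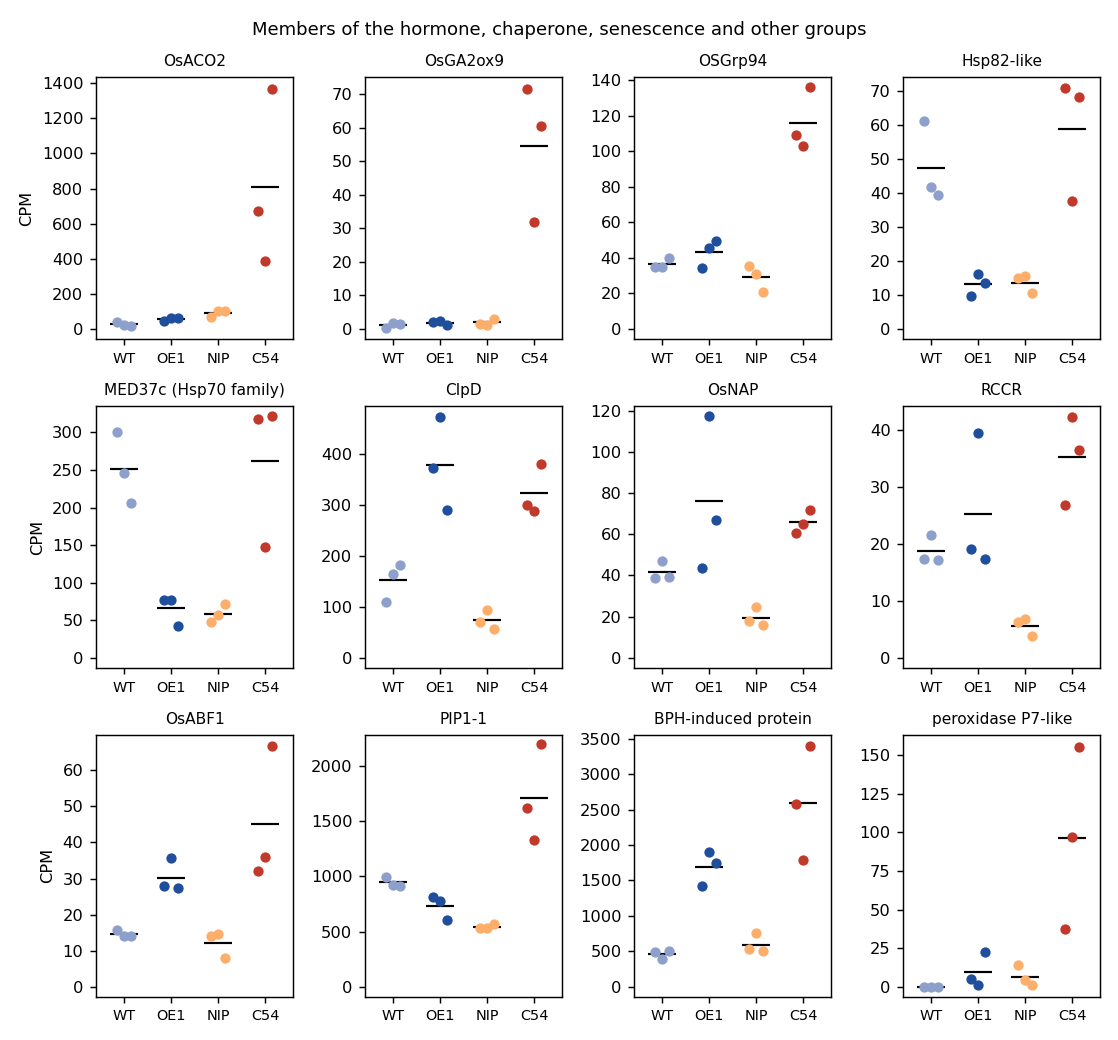
CPM of 12 members in each library, 1 point per library and a line at the mean of 3, each panel with its own linear axis. Hsp82-like and MED37c are high in WT and C54 and low in OE1 and NIP, OsACO2 and OsGA2ox9 are high in C54 alone, and ClpD, OsABF1 and the BPH-induced protein are higher in both transgenic groups than in their wild types.

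Among hormone and regulatory genes, OsGA2ox9 (OS02G0630300), of the enzyme class that inactivates gibberellins, stood far above the other groups in the mutant. It had 71.5, 31.8 and 60.4 CPM in C54, 1.60, 1.23 and 3.07 CPM in NIP, and no more than 2.42 CPM in WT or OE1. It was the one member among 11 gibberellin genes. OsWRKY76 (OS09G0417600), a WRKY factor of the defence response, had 209, 112 and 163 CPM in C54, 52.1, 47.9 and 27.4 CPM in NIP, and WT values of 198, 205 and 87.2 CPM that overlapped with C54. OsWRKY46a (OS11G0116900) had 16.3, 13.3 and 15.6 CPM in C54 and at most 6.14 CPM in NIP. It had 4.99, 9.54 and 7.89 CPM in WT and 11.9, 18.6 and 13.5 CPM in OE1. Its OE1 values lay above WT and overlapped with C54, but did not pass the edgeR test (adjusted p = 0.101). A jasmonate-induced protein gene (OS12G0199000) had 7.61, 6.06 and 7.55 CPM in C54 and 1.95, 1.62 and 2.41 CPM in NIP, with no read in WT and at most 0.0628 CPM in OE1.

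Defence proteins gave 5 members of 32 on the pathogenesis-related list, with both directions in OE1. Bowman-Birk inhibitors block trypsin-like proteases, and their genes OS01G0124100 and OS01G0124200 are neighbours that were both members. OS01G0124200 had 326, 350 and 617 CPM in C54, 132, 123 and 56.7 CPM in NIP, and rose in OE1 from 117, 129 and 134 CPM to 165, 333 and 349 CPM (log2 fold change 1.04, SE 0.23, adjusted p = 0.0382). OS01G0124100 rose from 12.1, 13.8 and 13.8 CPM to 21.1, 69.1 and 61.0 CPM (1.80, SE 0.36, adjusted p = 0.0270). Both genes are copies of 1 family, so reads that match both make their values uncertain.

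Chitinases, which cut the chitin of fungal walls, fell instead. Chitinase 2 (OS10G0416100) had 103, 93.0 and 137 CPM in C54 and 34.7, 35.4 and 28.6 CPM in NIP, and fell in OE1 from 50.1, 55.9 and 65.4 CPM to 26.6, 35.1 and 45.2 CPM (log2 fold change -0.79, SE 0.17, adjusted p = 0.0304). The hevamine-like chitinase OS01G0860500 fell in the same comparison (-0.84, SE 0.18, adjusted p = 0.0350). An osmotin-like gene (OS03G0663500) had 6.42, 11.0 and 24.6 CPM in C54 and at most 4.46 CPM elsewhere.

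Class III peroxidases, secreted haem enzymes that act on cell walls, gave 5 members of 31 paired genes. The P7-like gene OS06G0547400 was uneven within groups, with 37.6, 97.0 and 155 CPM in C54, 13.8, 4.47 and 0.823 CPM in NIP, and 5.34, 1.37 and 22.8 CPM in OE1. WT had 3 counts in all its libraries together. The gene was called higher in OE1 by edgeR (adjusted p = 0.0215). It passed the filter on low counts only through OE1, so the call is a description. OS07G0676900 had 37.6, 39.6 and 52.0 CPM in C54, and every NIP value (3.97 to 6.62 CPM) was above every WT value (0.911 to 2.82 CPM). OS01G0326300, OS02G0240300 and OS08G0113000 had mean C54 levels of 60.3, 33.1 and 15.9 CPM and mean NIP levels of 13.5, 7.51 and 2.27 CPM, and did not pass in OE1 against WT. The whole peroxidase list summed to 1594, 560.2 and 159 CPM in NIP-1, NIP-2 and NIP-3 and to between 622 and 778 CPM in C54. The 5 members were thus higher in every C54 library while the sum over their list was higher in NIP-1 than in any C54 library.

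Transport and nutrient genes followed. Aquaporin PIP1-1 (OS02G0666200), a water channel of the plasma membrane, had 1617, 1328 and 2200 CPM in C54, 534, 533 and 569.8 CPM in NIP, 999.7, 922 and 918 CPM in WT, and 812, 775 and 606 CPM in OE1. All 4 groups were separate, but OE1 against WT did not pass (log2 fold change -0.45, SE 0.22, adjusted p = 0.239). TIP1-2 (OS01G0975900), a water channel of the vacuole membrane, had 234, 167 and 391.6 CPM in C54 and 33.0, 50.8 and 76.1 CPM in NIP. It had 78.7, 67.5 and 69.0 CPM in WT and 181, 193 and 94.5 CPM in OE1. Its OE1 values lay above WT and overlapped with C54, but did not pass the edgeR test (adjusted p = 0.0714). OsVIT2 (OS09G0396900), which moves iron into vacuoles, had 110.0, 70.0 and 124 CPM in C54, 20.9, 11.0 and 5.10 CPM in NIP and 39.2, 44.9 and 51.3 CPM in WT. In OE1 it had 72.4, 66.8 and 145 CPM, above WT and overlapping with C54. It did not pass the edgeR test in OE1 against WT (adjusted p = 0.0568). It was 1 of 33 genes on the iron and metal list, the other 32 of which were not members.

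Nitrogen and carbon metabolism added 4 members. OsALDH7 (OS09G0440300), an aldehyde dehydrogenase, had 119.6, 148 and 158 CPM in C54, and levels of 41.5 ± 8.41 CPM in NIP, 44.9 ± 5.07 CPM in WT and 82.6 ± 21.9 CPM in OE1 (SD, n = 3). A subunit of branched-chain alpha-keto acid dehydrogenase (OS12G0183100), which degrades branched-chain amino acids, had 182, 208 and 219 CPM in C54 and 76.5 ± 12.04 CPM in NIP. Ammonium transporter 3 member 3 (OS02G0550800) had 9.93, 6.76 and 8.00 CPM in C54, and NIP (2.31 to 3.13 CPM) was above WT (1.08 to 1.97 CPM) and WT above OE1 (0.879 to 1.02 CPM). An alcohol dehydrogenase gene (OS03G0189400), of the ethanol fermentation enzymes, had 112, 118 and 151 CPM in C54 and 20.3, 38.9 and 24.1 CPM in NIP. None of these passed in OE1 against WT.

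Genes for 2 histones stood on the dividing-cell list. The histone H4 gene OS09G0553100 had 148, 112 and 189 CPM in C54 and 38.2, 43.0 and 23.5 CPM in NIP, and rose in OE1 from 11.9, 13.4 and 14.7 CPM to 21.1, 32.9 and 49.8 CPM (log2 fold change 1.25, SE 0.24, adjusted p = 0.0250). The H2B gene OS01G0149600 had 15.9, 18.1 and 23.9 CPM in C54 and 5.65 to 6.93 CPM in NIP. Histone genes occur in near-identical copies, so these values are uncertain. The sum of the list of 22 genes overlapped between NIP and C54, as given above, and was 209 to 236 CPM in WT and 277 to 857 CPM in OE1, and the part of this in the histone values was not tested.

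By deposited RPKM, which also divides by gene length, the most abundant member was OS02G0818000, similar to a brown planthopper-induced (BPH) resistance protein. Its RPKM was 1848 ± 578 in C54, 424 ± 99.8 in NIP, 329.6 ± 44.0 in WT and 1209 ± 176 in OE1 (SD, n = 3). In CPM it rose in OE1 from 493, 391 and 501 to 1424, 1907 and 1751 (log2 fold change 1.78, SE 0.19, adjusted p = 0.00318). PIP1-1 (564 ± 146 RPKM in C54) and OsACO2 (554 ± 344) followed, then OS01G0124200 (407 ± 152) and the Pollen Ole e I-type gene OS10G0205700 (342 ± 138). The OXS3-like gene OS02G0684400 (293 ± 39.4) and histone H4 (257 ± 66.4) came next. TIP1-2 (179 ± 78.0), OS04G0583200 (158 ± 15.7), the DnaJ gene OS06G0716100 (149.7 ± 24.9), OS12G0117700 (147 ± 3.72) and an alpha/beta hydrolase (OS01G0595600, 138 ± 32.3) completed the first 12. From the second place on, neighbours in this order differed by less than the sum of their SDs. Over all members the mean C54 RPKM ranged from 1.25 to 1848 with a median of 15.3.

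OS10G0205700 also differed between the wild types. It had 465, 209.8 and 496 CPM in C54 and 67.5, 71.2 and 41.4 CPM in NIP, but 4.66 to 10.4 CPM in WT and 6.09 to 8.73 CPM in OE1. OS04G0583200, a conserved hypothetical protein, went the other way, with 191, 160.3 and 163 CPM in C54, 31.0, 57.0 and 55.5 CPM in NIP, and 374, 549 and 455 CPM in WT. It fell in OE1 to 247, 283 and 199 CPM (log2 fold change -1.0, SE 0.23, adjusted p = 0.0414).

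How the members stood in Kitaake was counted over all of them, with all genes of at least 5 CPM in each C54 library as the background. All 3 WT values lay above the highest NIP value in 73 of the 159 members (45.9%), against 25.7% of the background. All 3 lay below the lowest C54 value in 115 members (72.3%), against 30.7%, and strictly between NIP and C54 in 30 members (18.9%), against 1.15%. The rule takes genes that are low in NIP and high in C54, so all 3 of these counts follow in part from the choice and are a description. WT lay above the highest C54 value in 12 members (7.55%, background 21.6%). These include OS06G0559600, OS04G0583200, PP2C61, the DnaJ gene OS04G0675400 and, with the largest ratio of mean WT to mean C54, the Hs1pro-1-like gene OS01G0855600 with 134, 254 and 211 CPM in WT against 46.6, 46.2 and 50.1 CPM in C54. WT lay below the lowest NIP value in 17 members (10.7%, background 14.9%), among them OsACO2, OS10G0205700 and histone H4. WT and NIP differ in cultivar, and nothing in the design separates cultivar from other differences between the Kitaake and Nipponbare libraries.

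**Figure D4:**
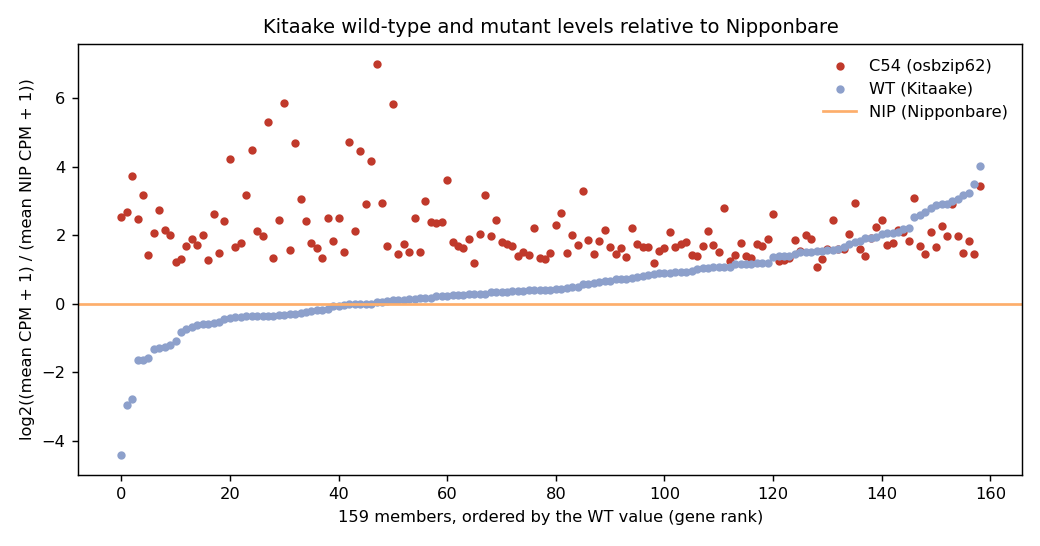
Mean level of each of the 159 members in WT (blue) and C54 (red) as log2 of (mean CPM + 1) over (mean NIP CPM + 1), ordered along the x axis by the WT value. WT values run from below the NIP line at 0 to above the C54 points, and 12 members have every WT library above every C54 library.

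The comparison of OE1 with WT shares no library with the choice of the 175 mutant-raised genes, and it was tested before the exclusion was applied. The edgeR test called 47 of the 175 higher in OE1 (26.9%), against 4.54% of the 19864 genes tested. It called 16 lower (9.14%), against 2.89%. The filter on low counts left 166 of the 175 to be tested, of which 28.3% were called higher and 9.64% lower. Of the 166, 20 had a WT library under the filter's level of 0.568 CPM, and 13 of these were called higher. The background was not matched to the mutant-raised genes in level. With all 6 libraries both shares were above the background, and for the lower calls this did not hold in every setting, as given below. The median log2 fold change of the tested mutant-raised genes was 0.48, against 0.02 over all genes tested. It was also 0.48 with the 1 gene at 0 in WT set to its bound. The counts fell to 20, 23 and 18 higher without WT-1, WT-2 and WT-3, when 0.676%, 0.577% and 0.532% of all genes were called higher. The lower calls fell to 5 (2.86% of the 175) without OE1-1 and to 3 (1.71%) without WT-1, when 1.17% and 0.577% of all genes were called lower. Without WT-2 or WT-3 they fell to 1 (0.571%), against 0.397% and 0.561% of all genes, so the share was then near the background.

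All 16 genes that the rule removed were among the 47. The exclusion used the same OE1 and WT values, so this follows from the rule and is a description. Those with the largest contrast included OS03G0115800, an expressed protein, with 112, 141 and 117 CPM in OE1 and 98.0, 94.3 and 97.1 CPM in C54, and at most 0.118 CPM in either wild type. OS03G0299700 behaved alike, with 43.9, 39.9 and 66.6 CPM in OE1, 37.4, 43.0 and 35.8 CPM in C54 and at most 0.101 CPM in the wild types. HOX24 (OS02G0649300), a homeodomain-leucine zipper factor, a NAC gene annotated with drought tolerance (OS11G0126900) and a methylthiopentene dioxygenase of the methionine cycle (OS10G0419400) had log2 fold changes of 5.03, 4.33 and 5.30 in OE1. The others of the first 8 were OS07G0122000 (5.42), OS07G0153150 (5.26) and OS07G0511400 (6.02). All of these 8 except OS11G0126900 had a WT library under the filter's level of 0.568 CPM. They passed the filter only through OE1, so their fold changes rest on low WT levels and are a description. The removed genes with the smallest ratio of lowest OE1 to highest WT value were an alpha-galactosidase (OS10G0492900, 4.88 times), OS07G0122100 (4.99) and a HORMA-domain gene (OS01G0165800, 5.54). The members nearest to removal were OS05G0130100 (3.54 times), OS04G0126900 (3.52) and OS12G0528801 (3.03).

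Of the 159 members, 150 were tested in OE1 against WT, of which 31 were higher, 16 were lower and 103 did not pass. Of the tested members 20.7% were higher and 10.7% lower, against 4.54% and 2.89% of all genes tested. These counts are a description, because the exclusion used the same values. A WT library was under the filter's level of 0.568 CPM in 11 tested members, of which 4 were called higher. These 4 were OS03G0629800, OS02G0772100, OS03G0826900 and OS06G0547400, which passed the filter only through OE1. Whether called or not, 53 members (33.3%) had every OE1 value above every WT value, against 18.0% of the genes with at least 5 CPM in each C54 library, and these include the 31. Every OE1 value was below every WT value in 20 members (12.6%), which include the 16, and in 12.7% of those genes, so this share was near the background. The 9 members not tested include the 6 with under 1 CPM outside C54. Of the 46 members called in C54 against NIP, 8 were also higher in OE1 and 5 lower. The 46 were called in the contrast that the rule used, and the exclusion used the OE1 and WT values. Nothing is read from this overlap.

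The 6 members with the lowest adjusted p among those higher in OE1 were OS05G0130100, OS01G0192300, OS02G0818000, OS03G0629800, OS07G0457300 and OS02G0772100. OS05G0130100, a hypothetical gene, rose from 11.3, 12.5 and 12.8 CPM in WT to 45.1, 58.8 and 47.1 CPM in OE1 (log2 fold change 1.96, SE 0.17, adjusted p = 0.00132), and had 52.9, 43.7 and 82.9 CPM in C54 against at most 11.6 CPM in NIP. Its OE1 and C54 levels overlapped, as did its WT and NIP levels. OS01G0192300, similar to an I-box binding factor, rose from 60.6, 56.2 and 52.9 CPM to 161, 218 and 212 CPM (1.70, SE 0.15, adjusted p = 0.00149), above the 109, 115 and 172 CPM of C54 in its mean. The gene annotated as atuA (OS07G0457300) rose from 2.68 ± 0.389 to 10.1 ± 1.12 CPM (1.80, SE 0.22, adjusted p = 0.00440). OS04G0126900 was higher in OE1 than in C54, with 14.7, 23.6 and 19.7 CPM against 7.01, 7.46 and 9.19 CPM in C54 and at most 4.18 CPM in WT.

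The 6 with the lowest adjusted p among those lower in OE1 began with the Hsp82-like gene and included the Hsp70-family gene OS03G0276500. A gene annotated as similar to Transformer-2, a splicing factor family, OS03G0265600, fell from 55.2, 38.6 and 44.0 CPM to 17.5, 15.1 and 10.9 CPM (log2 fold change -1.73, SE 0.26, adjusted p = 0.0104). It had 28.8, 18.3 and 25.5 CPM in C54 and 6.37 to 7.33 CPM in NIP. The thioredoxin-family gene OS02G0814000 fell from 27.0, 35.8 and 28.0 CPM to 11.8, 12.1 and 8.42 CPM (-1.57, SE 0.24, adjusted p = 0.0114), and had 44.7, 28.4 and 61.5 CPM in C54 and 3.46 to 5.20 CPM in NIP. In both genes the NIP libraries were the lowest and the OE1 libraries lay below those of WT and C54. OS01G0855600 (-1.57, SE 0.25, adjusted p = 0.0131) and the hypothetical gene OS01G0796000 (-1.51, SE 0.25, adjusted p = 0.0151) completed the 6, both with WT above C54.

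**Figure D5:**
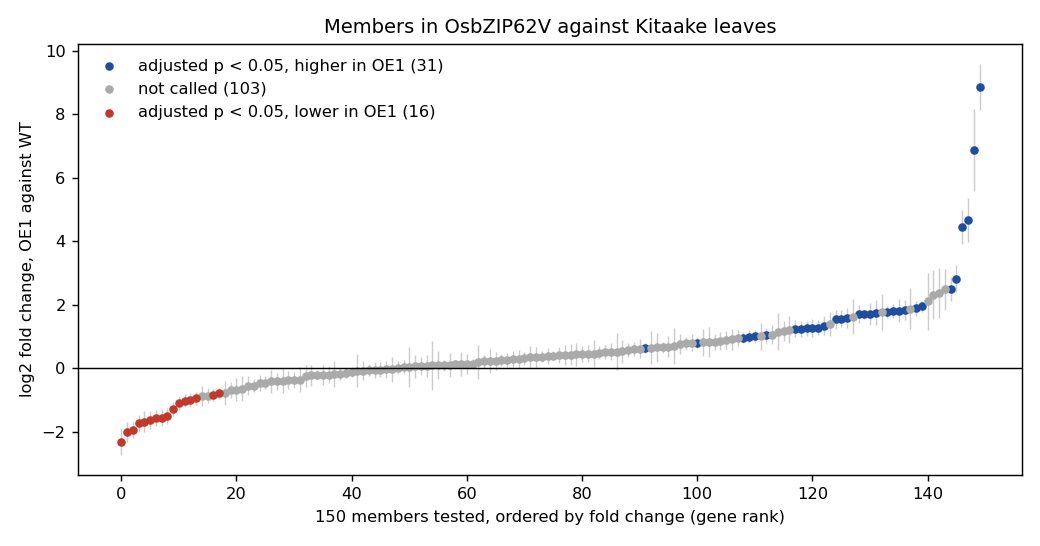
Log2 fold change of OE1 against WT for the 150 members tested, ordered by its value, with bars for the standard error. Blue points are the 31 members called higher, red points the 16 called lower and grey points the 103 that did not pass.

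The set was spread over all 12 chromosomes. Its share of the genes with at least 5 CPM in each C54 library ranged from 0.921% on chromosome 8 (7 of 760) to 2.34% on chromosome 9 (15 of 642). Chromosome 1 held the most members, 20 of 1721. Among 35667 pairs of neighbouring identifiers, 2 pairs had both genes in the set, the Bowman-Birk inhibitors and a pair of lectin-like receptor kinases (OS07G0575600 and OS07G0575700). The median gene length, as recovered from counts and RPKM, was 1958 bases, against 3422 bases for the genes with at least 5 CPM in each C54 library. No sequence beyond the guide was analysed here, since no promoter or protein table was at hand.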

How the data were processed

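Counts per gene and RPKM were used as the authors deposited them, 1 table per library; RPKM is the count per kilobase of gene and per 1000000 counts. Per the labels and methods, TruSeq v2 libraries (no strand mark) were trimmed with SeqPrep and Sickle and aligned with HISAT2 2.1.0; HTSeq 0.6.1p2, Bowtie2 2.2.3 and the build IRGSP-1.0 stand in the submitters' processing notes. Which annotation release was counted is not stated in the sources used. Groups come from the sample labels. OE1 against WT and C54 against NIP were each fitted on 6 libraries with edgeR 4.0.16 (TMM, filterByExpr, quasi-likelihood test) in R 4.3.3, and a call needs an adjusted p (Benjamini-Hochberg, over all genes tested) under 0.05, with no fold minimum. Standard errors come from the fold change and its F statistic. The code was tested on simulated data. DESeq2 1.42.0 and the other settings are in the closing section. The limit of 1 CPM for near-absent members was set after the values were seen.

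The members and the 17 gene lists were chosen with earlier results of these data known. Identifiers were paired with loci through the fold changes in the study's 2 tables of changed genes, each matched to a ratio computed from the deposited counts or RPKM (relative tolerance 6e-06) and used as a key only. This gave 2895 loci. The lists were ER protein folding, heat shock, ABA, senescence, antenna, pathogenesis-related, WRKY, NAC, jasmonate, ethylene, peroxidase, iron, nitrogen, aquaporin, alcohol dehydrogenase, dividing-cell and gibberellin genes. Named genes are OsbZIP62 and, among the members, the 12 with the largest ratio of lowest C54 to highest NIP CPM, the 12 with the highest C54 RPKM, all on a list, the 6 with the lowest adjusted p in each direction in OE1 against WT, and those nearest the thresholds, with at most 8 removed genes; others are marked as chosen later. OS10G0537100, OS07G0575600, OS07G0575700 and the removed gene OS03G0286900 were named after their values were seen. Figures were drawn with matplotlib.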

Additional observations from a re-analysis of the deposited data

Results flagged for a closer look

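Each named member was higher in every C54 library than in every NIP library, by the choice of the set. In 16 of them every OE1 library was lower than every WT library. Over all members this held for 20 of 159 (12.6%), against 12.7% of the genes with at least 5 CPM in each C54 library, so it was no more frequent among the members than in the background. The difference between the effect in C54 and that in OE1 was not tested, because the first was fixed by the choice. The log2 fold changes of OE1 against WT were -2.31 for the DnaJ gene OS04G0675400, -2.0 for the Hsp70-family gene OS03G0276500, -1.95 for the Hsp82-like gene OS08G0500700 and -1.28 for the co-chaperone OS02G0644100. They were -1.73 for OS03G0265600, -1.57 for OS02G0814000, -1.57 for OS01G0855600, -1.51 for OS01G0796000, -1.09 for Derlin-1 (OS05G0187800) and -1.0 for OS04G0583200. The chitinases OS01G0860500 and OS10G0416100 had -0.84 and -0.79. These 12 passed the edgeR test in OE1 against WT. The other 4 did not: PP2C61 (OS07G0114000, -0.86), the ammonium transporter OS02G0550800 (-0.78), the OXS3-like gene OS02G0684400 (-0.54) and PIP1-1 (OS02G0666200, -0.45).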

How the results depend on the processing

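The number of members moved with the thresholds. It was 259 at a minimum of 1 CPM, 442 at 1.5 times and 44 at 3 times the highest NIP value, and between 178 and 251 when 1 C54 or NIP library was left out, which can only add genes to the 159. With TMM or DESeq2 scaling, a minimum of 10 CPM or no exclusion the number stayed within 1.5 times. A similar number does not mean the same genes: with TMM scaling part of the 159 dropped out, as given with the library factors above. The mutant-raised genes called in OE1 against WT numbered between 18 and 51 higher and between 1 and 19 lower when 1 library was left out, while 0.532% to 13.2% of all genes were called higher and 0.397% to 4.01% lower. The lowest count of lower calls, 1 of 175 (0.571%), was near the background. Members alone gave 31 higher. DESeq2 called 56 higher and 17 lower, against 2081 and 1044 over all genes. With the replicate block the counts were 50 and 16, and the median log2 fold change was 0.46. The median stayed between 0.31 and 0.59 in all settings run. For C54 against NIP, which the rule used, the members called were 158 in DESeq2, 71 without the filter, 0 with the replicate block (159 at an unadjusted p under 0.05 in edgeR), and from 0 to 118 with 1 library left out. The labels do not say that equal replicate numbers share anything, and deviations of same-numbered libraries correlated at 0.20, 0.03 and -0.06 for WT with OE1 and at -0.33, 0.20 and 0.43 for NIP with C54, so the block is given as a setting and not as a pairing. Of the 29 named members called in OE1 against WT, 6 stayed called in every setting that left out a library or changed the tool, scaling, filter or block: OS01G0192300, OS02G0818000, OS03G0629800, OS05G0130100, OS07G0457300 and OS08G0500700. Of these, OS03G0629800 had no read in WT and passed the main filter only through OE1. No named gene called in the edgeR fit of 6 libraries changed direction. With 3 libraries a group, replication limits all calls, and a level under 1 CPM rests on fewer than 20 reads.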
